A study of Homo sapiens with 29 samples.

Results

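The genes described are 54 that take part in making ribosomes or polyamines and are widely listed as targets of the transcription factor MYC. They were taken as a given list of gene symbols, and 54 of 54 were found among the 13492 genes of the deposited table. All 54 also passed the filter on low values (at least 1 CPM, read counts scaled by library total, in at least 5 libraries), as did 13373 genes in all. By role they comprise 8 genes of RNA polymerase I transcription, 2 abundant nucleolar proteins, 5 proteins of the box C/D and U3 small nucleolar ribonucleoproteins (snoRNPs), 16 factors of small subunit assembly, 21 factors of large subunit assembly and 2 enzymes of polyamine synthesis.

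PolyA RNA was sequenced from tumors that the human colorectal adenocarcinoma line COLO320DM, which carries an amplified MYC gene, formed in mice. The 29 libraries, each labelled 48 h, were from tumors given Helicon4 at 100 mpk (n = 5), Helicon4 at 30 mpk (n = 6), Helicon4neg at 30 mpk (n = 8) or vehicle (n = 10), with mpk as the dose unit of the labels. Helicon4 is a helicon peptide directed at β-catenin and TCF transcription factors, and what separates Helicon4neg from it in structure is not given in the labels. All groups share 1 cell line and 1 time point, replicate numbers are the only sign that libraries of a group came from separate tumors, and p-values otherwise measure only the spread between libraries. No mouse genome is named, so transcripts of the host may be counted under human genes, and in bulk tumor RNA fewer cells of a type and less RNA per cell cannot be told apart.

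Ribosome production starts in the nucleolus, where RNA polymerase I transcribes the precursor of the large ribosomal RNAs. Box C/D snoRNPs guide its methylation, the U3 snoRNP and many partners fold and cleave it, and separate sets of factors build the small and the large subunit. MYC, bound with MAX to E-box sequences, is known to raise transcription of many of these genes and of ODC1 and SRM, whose enzymes make the polyamines of growing cells.

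Recovered whole reads numbered 34.3 to 61.6 M per library for Helicon4 at 100 mpk, 40.8 to 48.6 M at 30 mpk, 27 to 59.4 M for Helicon4neg and 26.8 to 60.9 M for vehicle. The slope of log2 values on gene length averaged 0.0391 at 100 mpk, 0.0434 at 30 mpk, -0.00723 with Helicon4neg and -0.0398 in vehicle, and was lowest in Helicon4neg library 2 (-0.321) and vehicle library 6 (-0.186). Of 10 exact permutation tests of depth or slope between groups (two-sided), the smallest p was 0.0506, for the slope at 30 mpk against vehicle (adjusted p = 0.411). Library titles also carry codes of unstated meaning: SH7083 holds 4 libraries of 100 mpk and 1 of 30 mpk, SH7081 1 of 30 mpk and 3 of Helicon4neg, SH7080 5 of Helicon4neg and 2 of vehicle, and no code holds Helicon4 together with vehicle. As markers of the line, the 8 measured colorectal epithelial genes, with MYC among them, summed to 6549 to 9388 CPM at 100 mpk and 6055 to 10470 CPM in vehicle, while CDH1, CDX1, VIL1 and CEACAM5 were not among the genes of the table. Values are CPM on the authors' scaling, each log2 fold change is a difference between group means of log2(CPM + 1), given with its SE, and a gene is called at a limma p adjusted over all genes under 0.05.

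The promoters are shown because an E-box recognised by MYC is what many of these genes are known for. The RefSeq table (GRCh38.p14) holds a promoter of 46 of the 54 genes, each running from 250 bases before the start of the gene to 50 bases after it. The palindromic E-box CACGTG, which reads the same on both strands, stood in 16 of the 46 (34.8%), against 10.1% of the 10530 promoters of tested genes and 7.26% of all 35116 promoters. In 12 of the 16 it began within 40 bases after the start, which is 26.1% of the member promoters and 1.04% of the promoters of tested genes, a window chosen after the positions were seen. For SRM (chr1:11059969-11060268, minus strand) it lay 199 bases before the start, for FBL (chr19:39846330-39846629, minus strand) 6 bases after it and for WDR43 (chr2:28894417-28894716, plus strand) 3 bases after it. SRM, FBL and WDR43 came from a list of genes set beforehand. Its other genes, NCL, NPM1, ODC1, NOP56, POLR1B and GNL3, had promoters without CACGTG and were not printed. MYBBP1A (chr17:4555335-4555634, minus strand, 27 bases after the start) and RRP9 (chr3:51941855-51942154, minus strand, 5 bases before the start) were added after their values were seen. The sequences run 5′ to 3′ along the strand of the gene, with the E-box in capitals.
SRM: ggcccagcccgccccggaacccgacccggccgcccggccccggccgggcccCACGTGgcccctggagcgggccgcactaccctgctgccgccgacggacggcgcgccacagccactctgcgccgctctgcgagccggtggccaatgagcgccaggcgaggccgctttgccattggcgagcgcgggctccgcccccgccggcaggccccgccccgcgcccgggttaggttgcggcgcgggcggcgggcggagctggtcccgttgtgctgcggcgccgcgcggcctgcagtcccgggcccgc
FBL: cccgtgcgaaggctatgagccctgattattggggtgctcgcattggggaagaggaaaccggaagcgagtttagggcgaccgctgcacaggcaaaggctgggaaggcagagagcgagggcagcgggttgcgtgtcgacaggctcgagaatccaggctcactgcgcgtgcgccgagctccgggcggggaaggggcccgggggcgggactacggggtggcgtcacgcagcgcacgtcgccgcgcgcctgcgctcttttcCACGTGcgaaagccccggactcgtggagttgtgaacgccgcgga
WDR43: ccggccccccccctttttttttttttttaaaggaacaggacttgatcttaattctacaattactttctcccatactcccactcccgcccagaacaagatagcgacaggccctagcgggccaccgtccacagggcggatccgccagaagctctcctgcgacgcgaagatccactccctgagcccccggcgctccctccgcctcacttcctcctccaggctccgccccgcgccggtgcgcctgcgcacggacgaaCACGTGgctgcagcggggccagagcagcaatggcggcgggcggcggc
MYBBP1A: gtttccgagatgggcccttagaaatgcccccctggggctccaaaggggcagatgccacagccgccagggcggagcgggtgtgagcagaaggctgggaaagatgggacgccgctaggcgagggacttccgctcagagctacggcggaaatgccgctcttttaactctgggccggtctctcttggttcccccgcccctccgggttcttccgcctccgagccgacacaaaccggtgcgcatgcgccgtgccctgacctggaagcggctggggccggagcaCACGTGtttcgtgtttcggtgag
RRP9: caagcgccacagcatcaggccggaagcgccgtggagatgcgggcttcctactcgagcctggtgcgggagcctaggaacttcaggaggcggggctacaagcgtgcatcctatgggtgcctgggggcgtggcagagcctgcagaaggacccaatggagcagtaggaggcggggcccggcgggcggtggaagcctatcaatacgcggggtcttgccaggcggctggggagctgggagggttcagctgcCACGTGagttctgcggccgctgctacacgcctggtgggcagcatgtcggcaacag

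The TCF/LEF motif CTTTGAT, searched on both strands (ATCAAAG on the other), stood in 1 of the 46 promoters, that of POLR1A (2.17%), against 1.51% for tested genes and 2.62% for all promoters. A match is a description of these letters and was not tied to binding.

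Summed over the 54 genes, the level was lower in every tumor given Helicon4 than in any tumor given Helicon4neg or vehicle. The 5 libraries at 100 mpk summed to 8576, 8422, 8146, 8437 and 8857 CPM. At 30 mpk the sum had a lowest, median and highest value of 8416, 8889 and 9419 CPM, against 9849, 10220 and 13320 CPM with Helicon4neg and 9870, 10470 and 12070 CPM in vehicle. The doses overlapped each other, and Helicon4neg overlapped vehicle. Title codes that hold more than 1 group gave these sums: in SH7083 the 4 libraries at 100 mpk spanned 8146 to 8576 CPM and the 1 at 30 mpk had 9274 CPM, in SH7081 the 1 library at 30 mpk had 8416 CPM and the 3 of Helicon4neg spanned 9888 to 10860 CPM, and in SH7080 Helicon4neg spanned 9849 to 13320 CPM and vehicle 9933 to 10500 CPM. The sum is weighted by its most abundant members. Column totals were at most 0.988 M in Helicon4 libraries and at least 0.966 M in the others. The median log2 difference of the members from the vehicle mean, without that weighting, overlapped between the groups. At 30 mpk library 4 (-0.0729) lay above Helicon4neg libraries 6 (-0.0874) and 8 (-0.102) and vehicle libraries 1 (-0.0901) and 9 (-0.0876). Every other Helicon4 library lay below all Helicon4neg and vehicle libraries, library 2 at 30 mpk narrowly (-0.105).

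**Figure D1:**
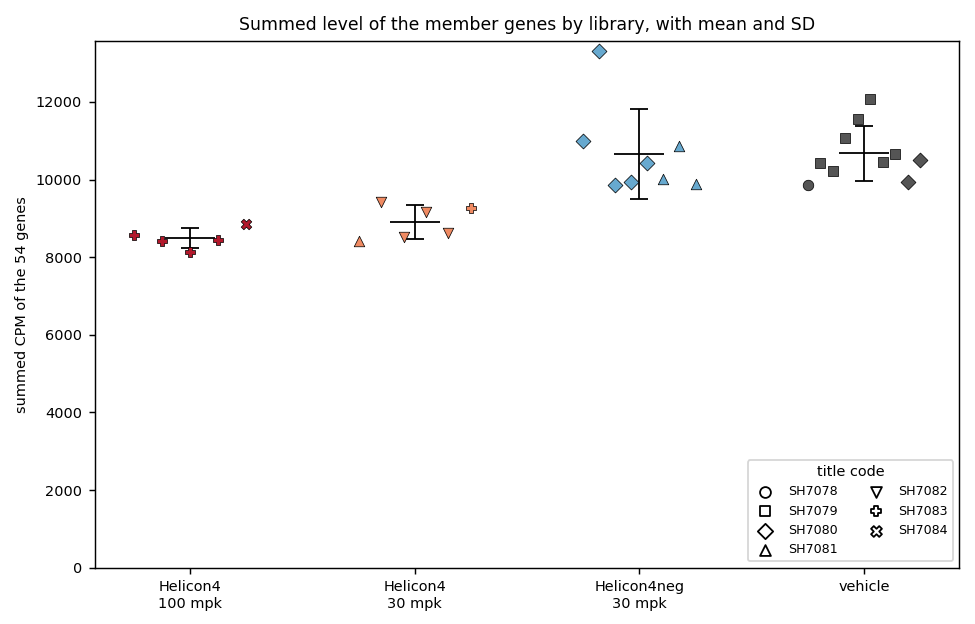
Summed CPM of the 54 genes (vertical axis, from 0) in each of the 29 libraries by group, with marker shapes for title codes and black bars for the mean and SD. The 11 Helicon4 libraries lie between 8146 and 9419 CPM and the 18 others between 9849 and 13320 CPM.

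Transcripts of MYC itself, on chromosome 8 (127735434 to 127741434, plus strand), did not pass the test in any of the 5 comparisons. MYC had 6433, 4603, 4845, 4702 and 5222 CPM in the 5 libraries at 100 mpk, and the lowest, median and highest values were 4792, 5394 and 5696 CPM at 30 mpk, 4845, 6432 and 8037 CPM with Helicon4neg and 3727, 5183 and 6534 CPM in vehicle. All 4 groups overlapped. The difference from vehicle was -0.02 at 100 mpk (95% limits -0.25 to 0.22, adjusted p = 0.929), 0.03 at 30 mpk (-0.19 to 0.25, adjusted p = 0.882) and 0.30 with Helicon4neg (0.09 to 0.51, adjusted p = 0.0782). Against Helicon4neg, Helicon4 at 30 mpk differed by -0.27 (-0.50 to -0.04, adjusted p = 0.116), and 100 mpk differed from 30 mpk by -0.05 (-0.31 to 0.22, adjusted p = 0.901). Per kilobase of gene length MYC stood at 1747 CPM in vehicle, above each of the 54 members, of which NPM1 (504), ODC1 (307), NCL (218) and FBL (206) were the most abundant and PPAN (2.23) the least.

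Helicon4 at 100 mpk was compared with vehicle to see what the higher dose did to these genes. Of the 54 members, 32 fell, 1 rose and 21 did not pass, with a median log2 fold change of -0.35, against a median of 0.01 over all genes tested. Among all genes, 15.9% fell and 14.3% rose (30.2% called in all). By role, 5 of 8 genes of RNA polymerase I transcription fell, both abundant nucleolar proteins, 4 of 5 snoRNP proteins, 7 of 16 small subunit factors, 12 of 21 large subunit factors and both polyamine enzymes. In 9 genes every library at 100 mpk lay below every vehicle library, where 4.13% of all genes tested did. With the title code as a block 0 members were called in this or any other comparison. Here that fit called 67 lower and 74 higher of all 13373 genes tested. The standard error of the members was 3.24 times as large at the median here, and 25 of the 33 called genes kept their sign. The code and the treatment cannot be told apart. Leaving out 1 library at a time kept 21 of the 33 calls each time, with between 22 and 32 genes called lower.

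With the length slope as a covariate the median was -0.23, 34 members were called lower and 0 higher, and 29 of the 33 calls were kept. Over all 13373 genes tested this fit called 2714 lower and 2399 higher. In 12 of the 32 genes that fell the difference was over 1.5 times smaller in this fit. Those still called were NOP16 (-0.22), MRTO4 (-0.23), POLR1C (-0.23), FBL (-0.20), BYSL (-0.21), DDX56 (-0.20), PES1 (-0.36), RRP1 (-0.40), NOC4L (-0.41) and SRM (-0.33), and ODC1 and EBNA1BP2 lost their calls. The length slope averaged 0.0391 at 100 mpk and -0.0398 in vehicle.

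**Figure D2:**
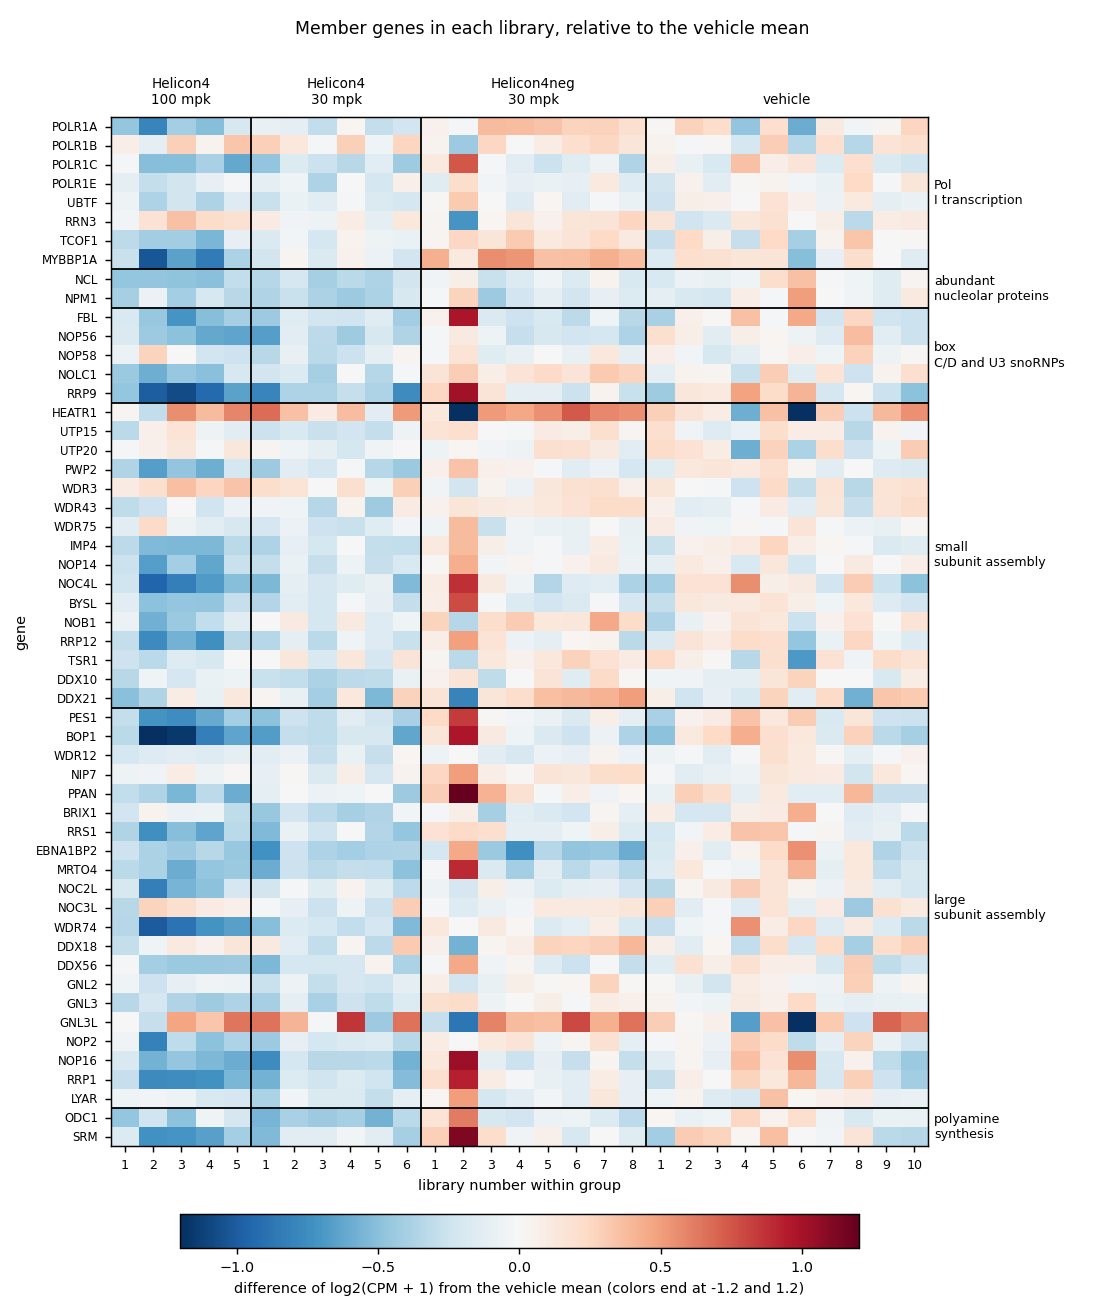
Difference of log2(CPM + 1) from the vehicle mean (color, blue lower and red higher) for the 54 genes (rows, by role) in the 29 libraries (columns, by group). Blue predominates in the 5 libraries at 100 mpk, where 32 genes fell, and Helicon4neg library 2 stands apart within its group.

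Among the genes of RNA polymerase I transcription, MYBBP1A, a nucleolar protein that binds MYB and takes part in ribosomal RNA synthesis (chromosome 17, 4538897 to 4555631, minus strand), moved most. It had 103.6, 60.8, 79.58, 69.39 and 96.11 CPM at 100 mpk, against a lowest, median and highest value of 87.7, 132.1 and 144.6 CPM in vehicle. Only vehicle library 6 reached into the range of the treated libraries. The mean was 81.9 ± 17.9 CPM at 100 mpk (SD, n = 5) and 126 ± 18.9 CPM in vehicle (SD, n = 10), a log2 fold change of -0.63 ± 0.11 (adjusted p = 7.44e-05). POLR1A, the largest subunit of the polymerase, averaged 83.4 ± 12.3 CPM at 100 mpk and 117 ± 22.1 CPM in vehicle (-0.47 ± 0.12, adjusted p = 0.00309), and POLR1C, a subunit shared with polymerase III, fell by 0.41 ± 0.13 (adjusted p = 0.0179). TCOF1, the treacle protein that brings factors to ribosomal DNA, spanned 116 to 157.9 CPM at 100 mpk and 128.7 to 214.2 CPM in vehicle (-0.36 ± 0.10, adjusted p = 0.00536). UBTF, which binds the ribosomal DNA promoter, spanned 171.8 to 213.5 CPM at 100 mpk and 187.8 to 251.8 CPM in vehicle (-0.23 ± 0.08, adjusted p = 0.0197).

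The remaining polymerase genes gave differences of either sign that did not pass. POLR1B, the second largest subunit, averaged 93.9 ± 11.9 CPM at 100 mpk and 86.2 ± 13.4 CPM in vehicle (0.13, 95% limits -0.10 to 0.36). RRN3, the initiation factor that recruits the polymerase, averaged 79.8 ± 7.57 CPM at 100 mpk and 70.7 ± 8.62 CPM in vehicle (0.18, -0.05 to 0.41). POLR1E, another subunit, had -0.15 ± 0.08 (adjusted p = 0.166). The UBTF call was lost without Helicon4 at 100 mpk library 2 or 4 (adjusted p = 0.0733 and 0.0707), and that of POLR1C without library 2, 3 or 5 of the same group (0.0511 to 0.0594).

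Nucleolin (NCL, chromosome 2, 231453531 to 231483641, minus strand), which binds ribosomal DNA and its transcripts, was lower in every library at 100 mpk than in any vehicle library. It had 1087, 1078, 1076, 1061 and 1222 CPM at 100 mpk, against a lowest, median and highest value of 1321, 1451 and 1914 CPM in vehicle. The log2 fold change was -0.44 ± 0.08 (adjusted p = 7.92e-05). Nucleophosmin (NPM1, chromosome 5, 171387116 to 171411137, plus strand), a chaperone of late nucleolar steps, had 1451, 1826, 1439, 1672 and 1517 CPM at 100 mpk, against 1652, 1880 and 2714 CPM in vehicle as lowest, median and highest. These ranges overlapped, and the fall of 0.28 ± 0.10 (adjusted p = 0.0367) was lost without Helicon4 at 100 mpk library 1, 3 or 5 or vehicle library 4, 6 or 10 (adjusted p = 0.0515 to 0.112), and with the length slope as a covariate (-0.19, adjusted p = 0.0727). GENCODE 29 names 45 numbered pseudogenes of NPM1, and how the authors counted reads shared with such copies is not given in the sources used here.

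Of the snoRNP proteins, RRP9, a U3-specific protein (chromosome 3, 51933430 to 51941941, minus strand), fell furthest. It had 45.43, 31.14, 29.31, 32.37 and 40.03 CPM at 100 mpk, against a lowest, median and highest value of 44.34, 66 and 88.47 CPM in vehicle. Library 1 at 100 mpk alone overlapped vehicle. The log2 fold change was -0.82 ± 0.17 (adjusted p = 0.000549), which the title code block reduced to -0.12 (adjusted p = 0.94). NOP56, a core protein of all box C/D particles, averaged 331 ± 44.4 CPM at 100 mpk and 458 ± 61.8 CPM in vehicle (-0.47 ± 0.10, adjusted p = 0.000592). NOLC1, a chaperone of snoRNPs, averaged 248 ± 26.3 CPM at 100 mpk and 337 ± 44.6 CPM in vehicle (-0.44 ± 0.09, adjusted p = 0.000331).

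Fibrillarin (FBL), the methyltransferase of the box C/D particle whose promoter is printed above, had 388, 322.1, 270.2, 310.3 and 334.7 CPM at 100 mpk, against 337.7, 440.5 and 605.9 CPM in vehicle as lowest, median and highest. The groups overlapped, and the fall of 0.45 ± 0.16 (adjusted p = 0.0284) was lost without library 2, 3 or 4 at 100 mpk (0.056 to 0.101) and turned to 0.09 with the title code block. NOP58, the partner of NOP56 in the same particle, averaged 155 ± 23.5 CPM at 100 mpk and 160 ± 14.7 CPM in vehicle and did not pass (-0.06, 95% limits -0.23 to 0.11, adjusted p = 0.641).

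Small subunit factors moved unevenly. NOC4L, a partner of NOP14, spanned 39.93 to 66.48 CPM at 100 mpk and 55.39 to 116.2 CPM in vehicle (-0.64 ± 0.17, adjusted p = 0.0047). RRP12, which takes part in export and late maturation, spanned 30.85 to 43.57 CPM at 100 mpk and 38.36 to 63.51 CPM in vehicle (-0.54 ± 0.12, adjusted p = 0.000703). PWP2 (-0.46 ± 0.09), IMP4 (-0.45 ± 0.08) and NOP14 (-0.44 ± 0.08), proteins of the early small subunit processome, fell with no overlap between the groups. BYSL, a late assembly factor, spanned 37.4 to 47.94 CPM at 100 mpk and 43.2 to 59.32 CPM in vehicle (-0.37 ± 0.12, adjusted p = 0.0185). NOB1, the nuclease of the last cleavage, spanned 65.67 to 93.62 CPM at 100 mpk and 75.63 to 110.7 CPM in vehicle (-0.30 ± 0.11, adjusted p = 0.0307). The BYSL call was lost without library 2, 3 or 4 at 100 mpk (0.051 to 0.0558), and that of NOB1 without the same 3 or without vehicle library 8 (0.0503 to 0.126).

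WDR3, a processome protein, was the 1 member that rose, with 141.7, 151.5, 170.1, 158.4 and 168 CPM at 100 mpk, against 105.1, 139.5 and 155.8 CPM in vehicle as lowest, median and highest. The groups overlapped, and the rise of 0.25 ± 0.09 (adjusted p = 0.043) was lost without any of 9 libraries, namely 2 to 5 at 100 mpk and 2, 3, 4, 6 and 8 of vehicle (0.0556 to 0.122). It was also lost with the length slope as a covariate (0.14, adjusted p = 0.0895), and turned to -0.20 with the title code block. HEATR1, a scaffold of the processome, had 45.62, 36.1, 65.8, 58.14 and 67.32 CPM at 100 mpk, against 17.88, 51.95 and 65.38 CPM in vehicle, and did not pass (0.25, 95% limits -0.33 to 0.84). Its lowest values in the series were 14.03 CPM in Helicon4neg library 2 and 17.88 CPM in vehicle library 6, the libraries with the lowest length slopes, and the part of that slope in its spread was not tested. UTP20, a large processome protein, spanned 80.73 to 90.53 CPM at 100 mpk and 54.44 to 102 CPM in vehicle and did not pass (0.06, 95% limits -0.17 to 0.28). WDR43 (-0.18), WDR75 (-0.06), UTP15 (-0.06), DDX10 (-0.15), DDX21 (-0.15) and TSR1 (-0.18) gave differences below 0 that did not pass.

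Large subunit factors included BOP1, with the largest fall of the 54 genes, and WDR74, with the smallest adjusted p. BOP1 and PES1 form the PeBoW complex with WDR12, which processes the precursor of the large subunit RNAs. BOP1 averaged 120 ± 32 CPM at 100 mpk and 213 ± 45.8 CPM in vehicle (-0.83 ± 0.18, adjusted p = 0.000627), and PES1 161 ± 22.7 CPM at 100 mpk and 238 ± 41 CPM in vehicle (-0.55 ± 0.13, adjusted p = 0.00205). The title code block reduced BOP1 to -0.13 (adjusted p = 0.938) and PES1 to -0.17 (adjusted p = 0.897). With the length slope as a covariate BOP1 had -0.59. WDR12 averaged 59.9 ± 1.57 CPM at 100 mpk and 66.9 ± 4.7 CPM in vehicle and did not pass (-0.15, 95% limits -0.28 to -0.03, adjusted p = 0.0625). WDR74, an adaptor of the remodelling enzyme NVL (chromosome 11, 62832342 to 62841809, minus strand), had 40.22, 25.15, 27.34, 30.97 and 32.36 CPM at 100 mpk, against 40.8, 50.02 and 75.55 CPM in vehicle as lowest, median and highest. The groups did not overlap, and the log2 fold change was -0.72 ± 0.11 (adjusted p = 1.59e-05).

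GNL3, the GTPase nucleostemin (chromosome 3, 52681156 to 52694492, plus strand), was lower in all 5 libraries at 100 mpk (195.3, 213.7, 191.2, 183 and 190.5 CPM) than in any vehicle library (lowest 226.7, median 238.4, highest 290.2 CPM). The log2 fold change was -0.34 ± 0.07 (adjusted p = 0.000245). RRP1 (-0.61 ± 0.14), RRS1 (-0.51 ± 0.11), NOP16 (-0.47 ± 0.16), NOC2L (-0.45 ± 0.10), MRTO4 (-0.44 ± 0.14), the RNA methyltransferase NOP2 (-0.40 ± 0.10), EBNA1BP2 (-0.37 ± 0.14) and the helicase DDX56 (-0.35 ± 0.11) also fell. RRP1 was reduced to -0.07 with the title code block (adjusted p = 0.96). NOP2 spanned 79.91 to 137 CPM at 100 mpk and 114 to 172.8 CPM in vehicle. RRS1 spanned 25.83 to 34.62 CPM at 100 mpk and 34.62 to 55.74 CPM in vehicle, with ranges that meet only at this rounding, and MRTO4 did not overlap vehicle either. EBNA1BP2 lost its call without any of libraries 2 to 5 at 100 mpk or 2, 4, 5, 6 and 8 of vehicle (adjusted p = 0.0564 to 0.0961), and with the length slope as a covariate (-0.17, adjusted p = 0.064). NOP16 lost its call without any of 2 to 5 at 100 mpk or vehicle 4 or 6 (0.0514 to 0.0713). MRTO4 lost it without library 3 at 100 mpk (0.0579), and DDX56 without library 3 or 4 (0.0559 and 0.0509).

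PPAN, the least abundant member, had 4.441, 4.197, 3.551, 4.365 and 3.407 CPM at 100 mpk, all below the vehicle range of 4.491 to 7.805 CPM, yet its difference of -0.42 ± 0.19 did not pass (adjusted p = 0.0859). GNL3L, a relative of GNL3, spanned 10.52 to 20.83 CPM at 100 mpk and 4.254 to 21.58 CPM in vehicle and did not pass (0.23, 95% limits -0.34 to 0.81), and neither did NOC3L (0.06), BRIX1 (-0.12), NIP7 (-0.01), DDX18 (-0.01), GNL2 (-0.10) or LYAR (-0.11).

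Both polyamine enzymes fell at 100 mpk. Spermidine synthase (SRM) had 139.7, 94, 95.81, 99.11 and 118 CPM at 100 mpk, against 116.7, 158.3 and 202 CPM in vehicle as lowest, median and highest, an overlap of 2 libraries at 100 mpk with the vehicle range. The log2 fold change was -0.53 ± 0.16 (adjusted p = 0.0124), and 0.07 with the title code block. Ornithine decarboxylase (ODC1, chromosome 2, 10439968 to 10448504, minus strand), the first enzyme of the pathway, had 659, 769.3, 647.3, 877.5 and 791.5 CPM at 100 mpk, against 802, 878.5 and 1078 CPM in vehicle. Its fall of 0.29 ± 0.11 (adjusted p = 0.0447) was lost without any of libraries 1, 2, 3 and 5 at 100 mpk or 1, 3, 4, 5, 6 and 7 of vehicle (0.0506 to 0.152), and with the length slope as a covariate (-0.18, adjusted p = 0.0999).

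**Figure D3:**
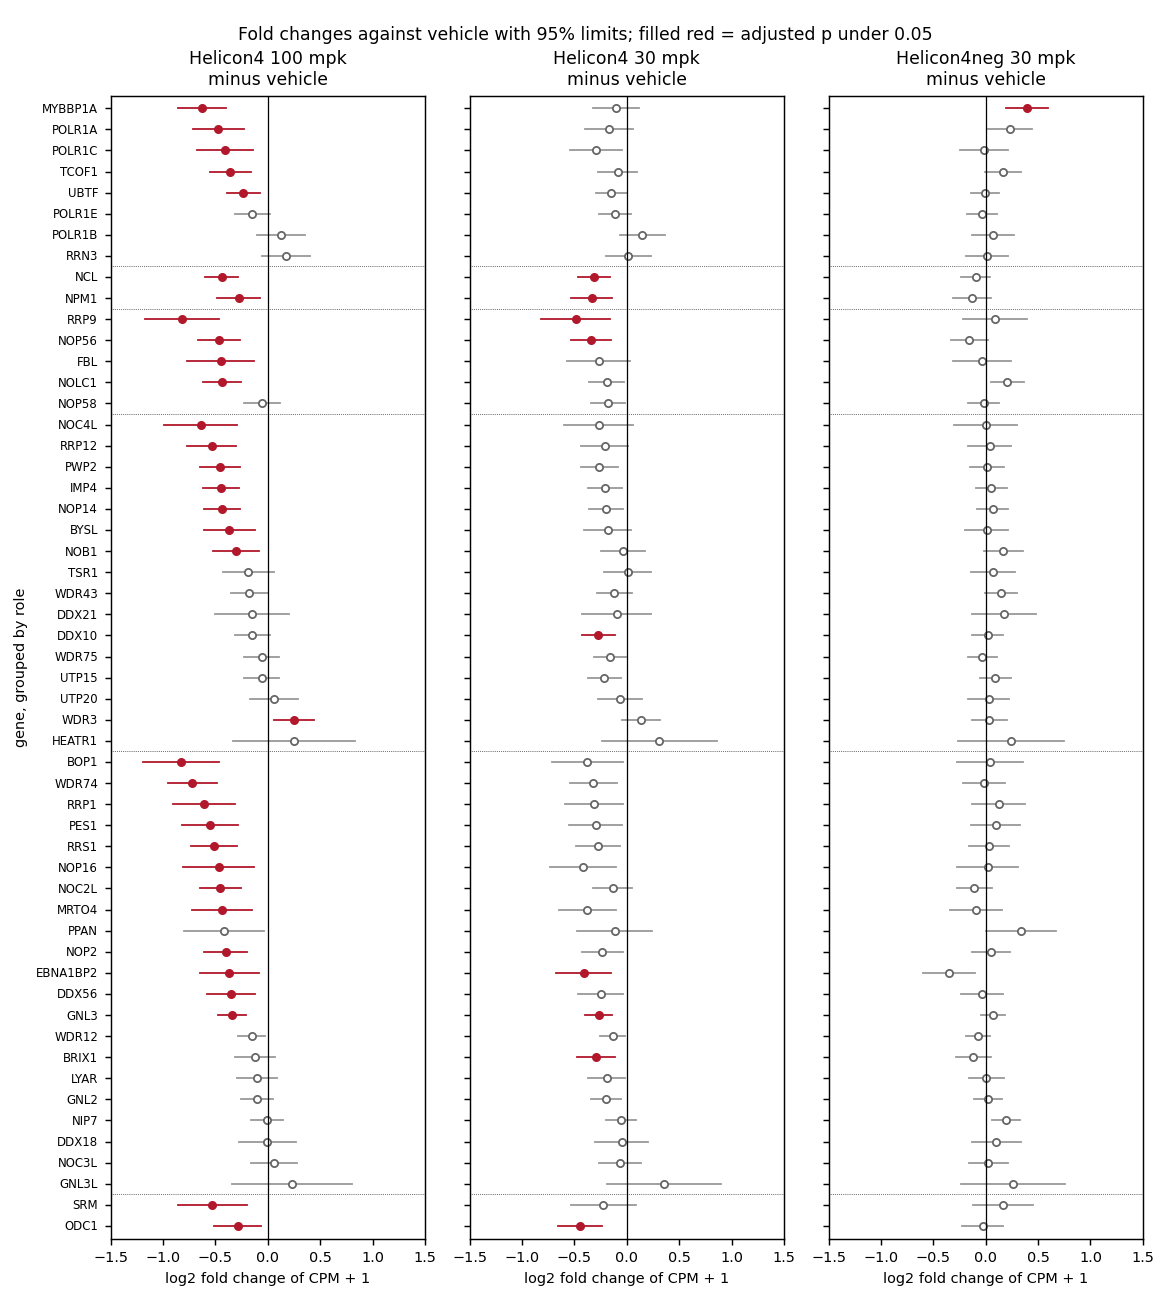
Log2 fold changes against vehicle (horizontal axis, with 95% limits) of the 54 genes (rows, by role and then by size at 100 mpk) in 3 panels (the higher and the lower Helicon4 dose, then Helicon4neg), filled red where called. Helicon4 gives 33 and 9 called genes at the higher and lower dose, and Helicon4neg 1.

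Gene length in the table had a median of 3844.5 bases for the 32 that fell and 5020 bases for the 21 that did not pass, and was 10275 bases for WDR3. An E-box stood in 12 of 27 promoters of genes that fell and in 4 of 18 of those that did not pass. Of the genes called lower at 30 mpk against vehicle, RRP9 and EBNA1BP2 held one. The promoters of NCL, NPM1, NOP56, GNL3, ODC1, BRIX1 and DDX10 did not. The part of the E-box in the falls was not tested.

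Other genes of the pathway come from lists chosen with earlier results of these data known, and their counts stand beside 15.9% of all genes lower and 14.3% higher. Of 133 further ribosome biogenesis genes tested, 46 fell and 0 rose at 100 mpk against vehicle (median -0.18). These were 16 of 41 small subunit factors (RCL1, -0.40 ± 0.07), 18 of 45 large subunit factors (DDX54, -0.60 ± 0.11, and LAS1L, -0.40 ± 0.07), 9 of 24 genes of H/ACA snoRNPs and the exosome (EXOSC5, -0.81 ± 0.15, and DKC1, the pseudouridine synthase, -0.35 ± 0.09) and 3 of 23 further polymerase I and III genes (POLR3E, -0.36 ± 0.07), the last a share under that of all genes. Of 40 MYC targets with other functions, 23 fell and 0 rose (median -0.37), among them CAD, the first enzyme of pyrimidine synthesis, with 153 CPM at 100 mpk and 248 CPM in vehicle (-0.71 ± 0.11, adjusted p = 1.59e-05), and TERT (-0.86 ± 0.13).

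Of 16 genes of the MYC network 4 fell and 3 rose, with a median of -0.09. Those that rose were MXD4 (0.53 ± 0.13), MGA (0.45 ± 0.11) and FBXW7 (0.38 ± 0.09), named after their values were seen, and those that fell were MYCN, MXD3 (-0.75 ± 0.17), BIN1 (-0.52 ± 0.11) and ZBTB17 (-0.40 ± 0.13). MYCN, the neural paralog of MYC, averaged 12.6 CPM at 100 mpk and 28.5 CPM in vehicle (-1.11 ± 0.11, adjusted p = 2.52e-09). Of 13 further polyamine genes 3 fell and 0 rose (median -0.10), a share not far from the 15.9% of all genes that fell. SAT1, the acetyltransferase that starts polyamine breakdown, averaged 98.2 CPM at 100 mpk and 187 CPM in vehicle (-0.91 ± 0.13, adjusted p = 2.24e-06). DOHH and DHPS, enzymes that modify the translation factor EIF5A, had -0.73 ± 0.18 and -0.43 ± 0.11.

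Some markers of proliferation and of other cells were called at 100 mpk too, where 15.9% of all genes fell and 14.3% rose. The leukocyte and colorectal epithelial lists are short, and their counts below are not far from those shares. Of 23 S-phase genes 15 fell and 0 rose, among them MCM3 (-0.63 ± 0.07) and CDT1 (-1.15 ± 0.13). Of the host and stromal lists, 2 of 4 measured endothelial markers fell (CLDN5, -1.86 ± 0.25, and EGFL7, -0.61 ± 0.23), with a summed level of 27.7 to 42.4 CPM at 100 mpk and 44.8 to 97.8 CPM in vehicle, while PECAM1, CDH5, VWF, KDR and TEK were not in the table. Fibroblast markers (3 of 6 higher, 1 lower) summed to 465 to 683 CPM at 100 mpk and 408 to 599 CPM in vehicle, and leukocyte markers (1 higher and 1 lower of 5) to 33 to 44.2 CPM at 100 mpk and 36.1 to 50.2 CPM in vehicle. Of the line's own markers, 2 of 8 colorectal epithelial genes fell (CDX2, -0.59 ± 0.13, and ASCL2, -0.72 ± 0.21) and 1 rose (KRT20, 0.73 ± 0.17), and 2 of 3 neuroendocrine genes fell (NCAM1, -0.66 ± 0.10, and SYP, -0.46 ± 0.14). The part of these markers in the falls of the 54 genes was not tested.

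Helicon4 at 30 mpk was compared with vehicle for the lower dose. Of the 54 members 9 fell, 0 rose and 45 did not pass, with a median of -0.20 against 0.00 for all genes, of which 5.22% fell and 5.86% rose (11.1% called in all). Of the 9, NCL, NPM1, NOP56, RRP9, GNL3, EBNA1BP2 and ODC1 were also called at 100 mpk, a comparison that shares the vehicle libraries, and BRIX1 and DDX10 were not. NCL and ODC1 did not overlap vehicle, where 2.39% of all genes lay below it in every library and 1.96% above it. The count was 5 without library 1 or without library 3 of this group, 14 with the length slope as a covariate and 17 without Helicon4neg library 2 and vehicle library 6, which stand apart by length slope. Over all genes the covariate fit called 1172 lower of 13373, and the fit without those libraries 1134 of 13343, against 698 in the main fit.

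ODC1 had a lowest, median and highest value of 613, 679.5 and 724.5 CPM at 30 mpk, against 802, 878.5 and 1078 CPM in vehicle. Every treated library lay below every vehicle library, and the log2 fold change was -0.45 ± 0.10 (adjusted p = 0.00325). NCL had 1137, 1187 and 1307 CPM at 30 mpk, against 1321, 1451 and 1914 CPM in vehicle, again without overlap (-0.31 ± 0.07, adjusted p = 0.00483). NPM1 averaged 1516 ± 95.1 CPM at 30 mpk (SD, n = 6) and 1930 ± 307 CPM in vehicle (SD, n = 10), a fall of 0.34 ± 0.10 (adjusted p = 0.0192), and GNL3 fell by 0.27 ± 0.06 (adjusted p = 0.00372).

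Calls of the other 5 genes depended on single libraries. NOP56 fell by 0.35 ± 0.09 (adjusted p = 0.0132; 0.07 without library 1) and DDX10, a helicase of the small subunit pathway, by 0.27 ± 0.08 (0.0191; 0.0559 without library 3). BRIX1, a factor of large subunit assembly, fell by 0.30 ± 0.09 (adjusted p = 0.0262, and 0.0538 to 0.0904 without library 1, 3, 4 or 5). RRP9 fell by 0.49 ± 0.16 (0.0489; 0.0623 to 0.15 without any of libraries 1, 2, 3, 5 and 6 or of vehicle 2, 3, 4, 5, 6 and 8), and with the length slope as a covariate its difference was -0.23 (adjusted p = 0.0696). EBNA1BP2 fell by 0.41 ± 0.13 (0.0364; 0.0501 to 0.134 without any of libraries 1, 3, 4, 5 and 6 or of vehicle 2, 4, 5, 6 and 8), and had -0.21 with that covariate (adjusted p = 0.0411). NOP16 spanned 29.63 to 43.69 CPM at 30 mpk and 36.99 to 75.07 CPM in vehicle and did not pass (-0.42 ± 0.15, adjusted p = 0.0777). The highest differences, of GNL3L (0.35, 95% limits -0.19 to 0.90), HEATR1 (0.31, -0.24 to 0.86), POLR1B (0.15, -0.07 to 0.37) and WDR3 (0.13, -0.05 to 0.31), did not pass. No polymerase I gene of the 8 passed, MYBBP1A having -0.10 (95% limits -0.32 to 0.12). Of the 133 further ribosome biogenesis genes 17 fell and 0 rose (RRP15, -0.41 ± 0.09), of 40 other MYC targets 3 fell and 0 rose, MYCN fell by 0.59 ± 0.10 and SAT1 by 1.02 ± 0.12. Among all genes 5.22% fell and 5.86% rose, and the 3 falls of MYC targets are not far from that share.

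Some markers were called at the lower dose too, where 5.22% of all genes fell and 5.86% rose. Of 23 S-phase genes 7 fell and 0 rose (MCM3, -0.34 ± 0.07), with a summed level of 2587 to 2991 CPM at 30 mpk and 2832 to 3784 CPM in vehicle. Of 6 fibroblast markers 3 rose (FN1, 1.32 ± 0.17, COL1A1, 0.74 ± 0.13, and PDGFRA, 0.41 ± 0.09), with sums of 428.3 to 535.2 CPM at 30 mpk and 408.2 to 599.4 CPM in vehicle. In the endothelial list 1 of 4 fell (CLDN5, -1.16 ± 0.23), with sums of 35.6 to 59.1 CPM at 30 mpk and 44.8 to 97.8 CPM in vehicle. Leukocyte markers gave 1 lower and 1 higher of 5, neuroendocrine markers 1 lower of 3 (NCAM1, -0.51 ± 0.09) and colorectal epithelial markers 0 of 8 called by limma. Their part in the falls at 30 mpk was not tested.

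**Figure D4:**
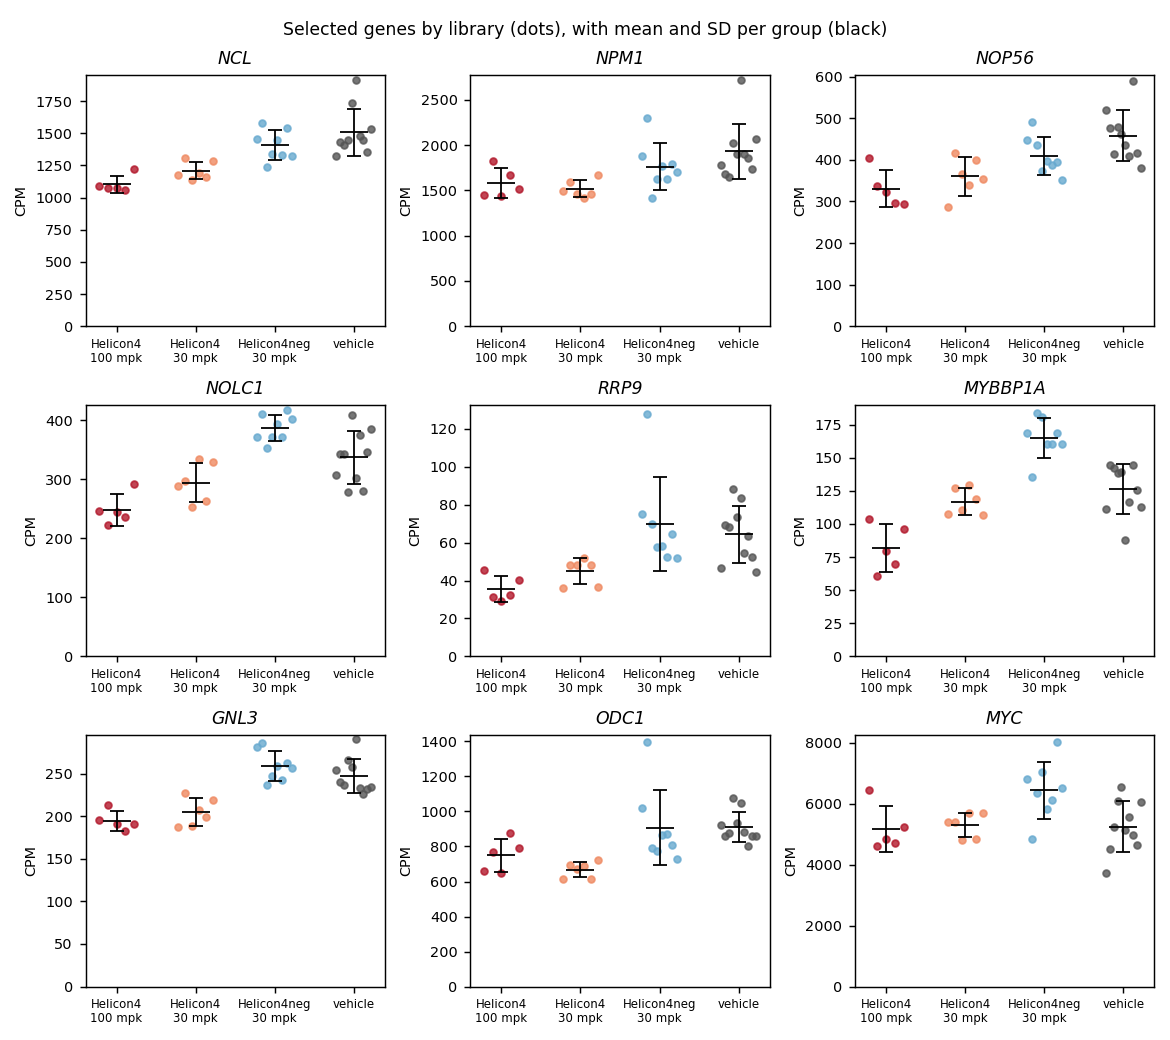
CPM (vertical axes, from 0) of 8 members and of MYC in each library (dots) by group, with the group mean and SD in black. NCL separates both Helicon4 doses from vehicle, MYBBP1A at 100 mpk lies below every library at 30 mpk, and the 4 groups overlap for MYC.

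The doses of Helicon4 were set against each other. Of the 54 members 1 was called, lower at 100 mpk, and 0 higher (median -0.11, against 0.01 for all genes). Among all genes 1.86% fell, 1.74% rose and 3.6% were called in all, so the 1 fall is near the share of all genes. The gene was MYBBP1A, with 103.6, 60.8, 79.58, 69.39 and 96.11 CPM at 100 mpk, against a lowest, median and highest value of 106.8, 114.8 and 129.5 CPM at 30 mpk. The doses did not overlap for it, as for 1.71% of all genes in this direction, and the log2 fold change was -0.53 ± 0.12 (adjusted p = 0.0129). Without library 2 at 100 mpk the adjusted p was 0.0756 and 0 members were called, without library 1 of that group 3 and without library 5 of it 2. For the other genes the limits do not show that the doses act alike: WDR74 had -0.40 (95% limits -0.66 to -0.14, adjusted p = 0.0727), BOP1 -0.45 (-0.85 to -0.05), NOC4L -0.37 (-0.75 to 0.01), NCL -0.13 (95% limits -0.31 to 0.05), RRP9 -0.33 (-0.72 to 0.06) and ODC1 0.16 (-0.09 to 0.40). With the length slope as a covariate 13 members were called lower. Over all 13373 genes that fit called 1088 lower and 912 higher, against 249 and 233 in the main fit. MYCN (-0.52 ± 0.12, adjusted p = 0.011) was lower at 100 mpk than at 30 mpk among the network genes.

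Helicon4neg at 30 mpk was compared with vehicle as the other compound. Of the 54 members 0 fell and 1 rose (median 0.03, against 0.00 for all genes). Among all genes 2.62% fell, 2.21% rose and 4.84% were called in all, so the 1 rise is near the share of all genes. At an unadjusted p under 0.05 6 members differed, and edgeR called 0 lower and 1 higher, DESeq2 0 and 2. The gene was MYBBP1A, with a lowest, median and highest value of 135.6, 164.5 and 183.9 CPM with Helicon4neg, against 87.7, 132.1 and 144.6 CPM in vehicle. The groups overlapped through Helicon4neg library 2 (0.202% of all genes were higher in every library and 0.307% lower), and the log2 fold change was 0.39 ± 0.10 (adjusted p = 0.0165). NCL (-0.09, 95% limits -0.23 to 0.05), GNL3 (0.07, -0.05 to 0.19) and ODC1 (-0.03, -0.22 to 0.16) did not pass, nor did EBNA1BP2 (-0.35, -0.59 to -0.11, adjusted p = 0.0848) or PPAN (0.34, 0.01 to 0.67), and neither did any of the 133 further ribosome biogenesis genes. SAT1 rose by 0.82 ± 0.11 (adjusted p = 6.26e-05), to 330 CPM with Helicon4neg, against 187 CPM in vehicle. Without Helicon4neg library 2, 2 members were called lower and 2 higher, and with the length slope as a covariate 1 lower and 6 higher. Calls over all genes rose in these fits too. Without that library 1289 genes were lower and 1303 higher of 13355, and with the covariate 1202 were lower and 1181 higher of 13373.

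At the matched dose of 30 mpk, the 1 pair of compounds that could be compared at equal dose and time, Helicon4 gave lower levels than Helicon4neg. Of the 54 members 17 fell and 0 rose (median -0.25, against 0.00 for all genes), where 7.31% of all genes fell, 7.78% rose and 15.1% were called in all. In 7 members every Helicon4 library lay below every Helicon4neg library, against 3.32% of all genes (3.78% lay above). They fell in each role but that of NCL and NPM1: 2 of 8 polymerase genes, 2 of 5 snoRNP proteins, 6 of 16 small subunit factors, 6 of 21 large subunit factors and 1 of 2 polyamine enzymes. Of the 17, 4 (DDX10, GNL3, ODC1 and RRP9) were also called against vehicle with the same Helicon4 libraries. The count was 9 without library 1, 3 or 5 of Helicon4, 10 without its library 6 and 11 without Helicon4neg library 1.

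GNL3 had a lowest, median and highest value of 187.3, 203.4 and 227.5 CPM with Helicon4, against 236.8, 258.3 and 286.5 CPM with Helicon4neg. The compounds did not overlap (-0.34 ± 0.07, adjusted p = 0.000459). NOLC1 had 253, 292.7 and 333.9 CPM with Helicon4, against 353.6, 382.8 and 416.3 CPM with Helicon4neg, also without overlap (-0.40 ± 0.09, adjusted p = 0.00166). MYBBP1A was higher with Helicon4neg than in vehicle by 0.39, while Helicon4 at 30 mpk did not pass against vehicle for this gene. Between the compounds MYBBP1A had 106.8, 114.8 and 129.5 CPM with Helicon4, against 135.6, 164.5 and 183.9 CPM with Helicon4neg (-0.49 ± 0.11, adjusted p = 0.00221). ODC1 (-0.42 ± 0.11, adjusted p = 0.00745), UTP15 (-0.31 ± 0.08, 0.0101) and RRP9 (-0.58 ± 0.17, 0.0194) were separated as well, as was RRP1 (-0.44 ± 0.14, 0.0344). The RRP9 call was lost without library 1 or 6 of Helicon4 (0.061 and 0.0548), and that of RRP1 without either of these or without Helicon4neg library 1 or 2 (0.0523 to 0.0981).

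Of the other called genes POLR1A (-0.40 ± 0.12) and DDX10 (-0.29 ± 0.08) kept their calls without any 1 library, while 8 genes (adjusted p = 0.0176 to 0.0485) lost theirs in some. NIP7 lost it without Helicon4 library 3 or 5, WDR43 without either of these or Helicon4neg 7 or 8, NOP14 without Helicon4 1, 3, 5 or 6 or Helicon4neg 2, and IMP4 without Helicon4 1, 3, 5 or 6 or Helicon4neg 1 or 2. PES1 lost it without any of Helicon4 1, 2, 3, 5 and 6 or Helicon4neg 1, 2 and 7, RRS1 without Helicon4 1, 3, 5 or 6 or Helicon4neg 1, 2, 3 or 7, PWP2 without the same 4 of Helicon4 or Helicon4neg 1 to 5, and GNL2 without Helicon4 1, 3, 4 or 5 or Helicon4neg 1 or 4 to 8 (adjusted p = 0.0504 to 0.147 over these genes). NCL (-0.22, 95% limits -0.38 to -0.06, adjusted p = 0.0599), NOP56 (-0.19, -0.39 to 0.01), FBL (-0.23, -0.55 to 0.08), NOP16 (-0.44, -0.77 to -0.11), PPAN (-0.45, -0.83 to -0.08) and SRM (-0.39, -0.71 to -0.07, adjusted p = 0.0988) did not pass, which does not show that the compounds act alike on them. Of the 133 further ribosome biogenesis genes 13 fell and 0 rose (RCL1, -0.37 ± 0.07), and of 40 other MYC targets 4 fell and 0 rose. Among all genes 7.31% fell and 7.78% rose, and the counts of falls in both lists are not far from that share. SAT1 averaged 90.4 CPM with Helicon4 and 330 CPM with Helicon4neg (-1.84 ± 0.13, adjusted p = 4.99e-12). Against vehicle SAT1 rose with Helicon4neg and fell with Helicon4 at 30 mpk, so its difference holds both changes. MYCN averaged 18.4 CPM with Helicon4 and 29.8 CPM with Helicon4neg (-0.67 ± 0.11).

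Between the compounds, 3 of 6 fibroblast markers were higher with Helicon4 (COL1A1, 0.97 ± 0.13, FN1, 0.95 ± 0.18, and PDGFRA, 0.31 ± 0.10), with sums of 428.3 to 535.2 CPM with Helicon4 and 390.5 to 524.9 CPM with Helicon4neg. Of 4 endothelial markers 1 was lower (CLDN5, -1.52 ± 0.25) and 1 higher (ENG, 0.52 ± 0.12), with sums of 35.6 to 59.1 CPM with Helicon4 and 44.7 to 150.1 CPM with Helicon4neg. Of the line's own markers, 2 of 8 colorectal epithelial genes fell (CDX2, -0.63 ± 0.12, and ASCL2, -0.59 ± 0.20), with MYC in this list, and 1 of 3 neuroendocrine genes (NCAM1, -0.52 ± 0.10). Leukocyte markers gave 1 lower of 5 (CTSS, -0.83 ± 0.14), and S-phase genes 2 lower and 1 higher of 23. Among all genes 7.31% were lower and 7.78% higher, and the S-phase counts were not far from those shares. The part of these markers in the difference between the compounds was not tested.

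**Figure D5:**
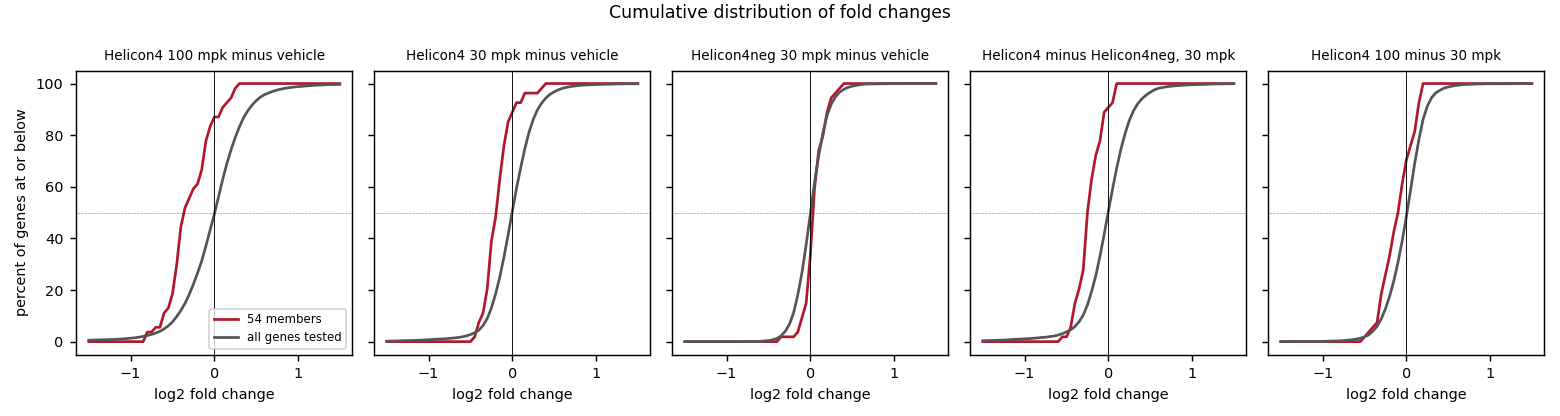
Percent of genes (vertical axis) at or below each log2 fold change (horizontal axis) for the 54 members (red) and all 13373 genes tested (gray) in the 5 comparisons. The members' curve lies left of that of all genes for Helicon4 against vehicle and against Helicon4neg, with medians of -0.35, -0.20 and -0.25, and near it for Helicon4neg against vehicle (0.03).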

How the data were processed

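RNA of COLO320DM tumors was measured in 29 libraries. The authors' deposited table gives CPM, read counts scaled by library total and again between libraries, a signal whose columns sum to 0.921 to 1.26 M, with a gene length per gene. Per the submitters' processing notes, the tools were edgeR 4.0.2, Subread 2.4.2 with its featureCounts, the aligner STAR 2.7.7a and, for trimming, Trimmomatic 0.39, on build GRCh38. Counting settings and the gene annotation are not given in the sources used here. Per the labels' protocols RNA was polyA selected, with NEBNext Ultra II Directional and TruSeq stranded kits both named.

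The test was limma (3.58.1, under R 4.3.3) on log2(CPM + 1), with robust fitting and a mean trend in 1 fit over all 4 groups, for genes of at least 1 CPM in at least 5 libraries, with Benjamini-Hochberg adjustment over 13373 genes and a threshold of 0.05. In every library 100% of values were whole reads within 0.05 reads, so edgeR 4.0.16 and DESeq2 1.42.0 were run on recovered reads. Genes were matched by identifier where a symbol occurs more than once (4 symbols). The steps were tested on simulated data. The members and lists were chosen with earlier results of these data known. Members were described by a list set by role plus the 4 largest differences each way, and other lists by up to 3 genes of smallest adjusted p. Alternatives were another pseudocount, other filters, TMM scaling, only the groups compared, the replicate number or title code as a block, length slope as a covariate, plain empirical Bayes, and libraries left out. Intervals cover the spread between libraries.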

Additional observations from a re-analysis of the deposited data

Results flagged for a closer look

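In each group of 5 to 10 libraries the highest and the lowest value were set against the nearest of the others by Dixon's ratio, for 28 measures in 112 groups, and 15 values stood apart. Chance gives about 5 percent of groups. Of the 15, 12 came from Helicon4neg library 2, which also had the lowest length slope (-0.321).

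In Helicon4neg library 2 the values above the rest of the group were FBL at 871.9 CPM, PES1 at 421 CPM, BOP1 at 410.4 CPM, SRM at 342.7 CPM, BYSL at 91.46 CPM, UBTF at 277.9 CPM, PPAN at 21.42 CPM, ODC1 at 1398 CPM and the sum of the 54 genes at 13320 CPM. Those below it were POLR1B at 62.89 CPM, RRN3 at 42.69 CPM and HEATR1 at 14.03 CPM. The part of the length slope in these values was not tested.

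Single values stood apart in 3 other libraries. NCL was highest in Helicon4 at 100 mpk library 5 (1222 CPM), NPM1 was highest in vehicle library 6 (2714 CPM), and PPAN was lowest in Helicon4 at 30 mpk library 6 (3.915 CPM).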

How the results depend on the processing

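Counts of the 54 genes called lower and higher were 32 and 1 (100 mpk against vehicle), 9 and 0 (30 mpk against vehicle), 0 and 1 (Helicon4neg against vehicle), 17 and 0 (30 mpk against Helicon4neg) and 1 and 0 (100 mpk against 30 mpk). With the title code as a block 0 of the 54 genes were called in each. Over all 13373 genes that block gave 67 lower and 74 higher, 43 and 31, 1 and 1, 99 and 85, and 3 and 7. At 100 mpk against vehicle POLR1C (0.0905), FBL (0.0874), WDR3 (-0.20), NOC4L (0.0501), MRTO4 (0.0275), DDX56 (0.0263), NOP16 (0.0663) and SRM (0.0704) changed sign with this block, and the cause was not tested. With the length slope as a covariate the counts were 34 and 0, 14 and 0, 1 and 6, 23 and 0, and 13 and 0. Over all 13373 genes that fit called 2714 and 2399, 1172 and 1077, 1202 and 1181, 1793 and 1647, and 1088 and 912. Leaving out vehicle library 6 together with Helicon4neg library 2 gave 34 and 1, 17 and 0, 1 and 1, 20 and 0, and 4 and 0. Over all 13343 genes tested without them the calls were 2783 and 2484, 1134 and 1059, 1033 and 992, 1292 and 1283, and 577 and 474. DESeq2 called 2 genes higher with Helicon4neg, and a fit of only the 2 groups called 0 higher at 100 mpk against vehicle.

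The replicate number as a block gave 31 and 1, 14 and 0, 0 and 0, 9 and 0, and 1 and 0. Same-numbered libraries correlated at -0.70 to 0.52 over 35 pairs, 15 of them over 0.1, so the number was not taken as a pairing. Leaving out 1 library gave 22 to 32 lower and 0 to 1 higher, 5 to 13 lower, 0 to 2 lower and 1 to 2 higher, 9 to 17 lower, and 0 to 3 lower. The shallowest library held 26.8 M reads.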
